A study of Mus musculus with 6 samples.

Results

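The 3 arrays described here, of 6 in all, measured RNA of the side population of the anterior pituitary in control mice given diphtheria toxin. They were chosen by their titles, which name a control without Cre after 3 days of toxin (2 arrays) or after 10 days (1 array). All 3 came from female mice of genotype -/iDTR, which carry an inducible receptor for diphtheria toxin and no Cre recombinase to switch it on, so that they stand for toxin exposure without ablation. Every mouse of the series received toxin, in 2 doses of 4 ng for each g of body weight on each of the 3 or 10 days. The remaining arrays came from GHCre/iDTR females on the same schedule, 2 after 3 days and 1 after 10 days. In these, Cre is driven from growth hormone regulatory sequences and makes growth hormone cells sensitive. There was no array of untreated or saline-treated mice among those analysed here, and the age of the mice was not given in the sources used here. The design text calls the samples independent, without saying how many pituitaries went into each, so the p-values measure only the spread between these samples.

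The side population is the small set of cells that pump out a Hoechst dye and therefore appear dim in flow cytometry. In the pituitary this fraction holds the stem and progenitor cells of the gland once cells with the highest Sca1 level, the product of Ly6a, are left out, which the study did in its sort. The anterior lobe itself is made of hormone cells, named after their products: somatotropes (growth hormone), lactotropes (prolactin), corticotropes (corticotropin), gonadotropes (the gonadotropins) and thyrotropes (thyrotropin). Stem cells that express Sox2 and folliculostellate cells, a supporting type marked by S100b, lie among them with capillaries, pericytes and resident macrophages. Per the labels, the neurointermediate lobe was removed before dissociation.

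From a sorted fraction of 25000 to 50000 cells, 1 ng of RNA was copied and amplified as cDNA (NuGEN Ovation Pico) and hybridised to an Agilent array of 1 colour. Levels are log2 values of the processed signal relative to the 75th percentile of the same array, so that 0 is the level of that percentile and 1 is 2 times as bright. The 75th percentile itself was at a signal of 187, 249 and 254 in the 3 day replicates 1 and 2 and the 10 day array, and 53.8%, 63.1% and 63.0% of probes were well above background by the scanner software's call. The arrays' number limits the precision of every value. Levels of different genes come from different probes and do not order transcripts by abundance, and a lower level can mean fewer cells of a type or less RNA in each, which cannot be told apart in sorted bulk RNA. Xist, expressed from the inactive X chromosome of females, stood at 3.82, 3.78 and 3.73, and the Y-linked genes Ddx3y, Eif2s3y, Kdm5d and Uty were not well above background on any control array. The free-text descriptions of some samples contradict their titles. The 10 day control and replicate 2 of the 3 day controls are both described there as regenerative, and the 10 day GHCre array as a control of 3 days, whereas the genotype and treatment fields match the titles, which were used. Controls lack the ablation, so no targeted gene checks their labels.

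The brightest probes of the side population were of a particular kind. Ranked by mean level over the 3 arrays, the 25 brightest named genes were led by Prl, the prolactin transcript, at 11.07 and 11.06 after 3 days and 10.50 after 10 days. The probes of the other 24, from Cep170b (10.35, 10.04 and 9.88) to Cyp2u1 (9.74, 9.32 and 9.34), all held a repeated sequence by the rule given below, and 22 of them held TGTGTGTGTG. Stretches from 4 of these probes and, for contrast, of the probes of the hormone genes Prl and Gh are shown here, each of 30 bases from the 60 base probe, with the repeat in capitals. The capitals mark the longest run of the simple repeat or, in Timmdc1 and Slc10a1, the 16 bases found in the promoter windows of the most genes.

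Cep170b: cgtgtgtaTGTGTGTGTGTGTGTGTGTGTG
Sgsh: cacaTGTGTGTGTGTGTGTGTGTGTGcgtg
Timmdc1: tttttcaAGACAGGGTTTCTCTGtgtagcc
Slc10a1: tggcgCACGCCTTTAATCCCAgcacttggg
Prl: caaaagttttatttgctttatagttttcag
Gh: tggctgctgacacctacaaagagttcgagc

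The probe of Cep170b lies at chr12:113984355-113984414 on the plus strand of mm9 and holds a TG run of 38 bases, and that of Sgsh at chr11:119204865-119204924 on the minus strand holds one of 22 bases. The capitals of Timmdc1, whose probe lies at chr16:38498801-38498860 on the minus strand, occur in the promoter windows of 42 genes in RefSeq's tables, and those of Slc10a1 (chr12:82056539-82056598, minus strand) in those of 8. The probes of Prl (chr13:27156972-27157031, plus strand) and Gh (chr11:106162492-106162735, minus strand) share no stretch of 16 bases with any promoter window. A probe was called repeat-bearing here if it held a simple repeat of at least 10 bases or 16 bases found in the promoter windows of at least 3 genes, a rule set after these probes had been seen. By this rule 1567 of 39429 probes (3.97%) were repeat-bearing, against 96.0% of the 25 brightest, 93.3% of the next 75 and 1.72% of those ranked below 20000.

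**Figure D1:**
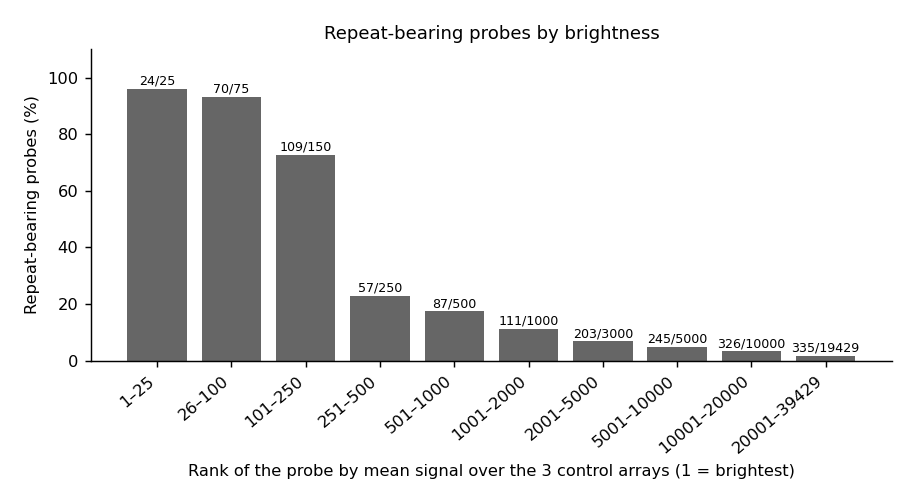
Share of probes that were repeat-bearing (y axis, percent) by rank of the probe's mean level over the 3 control arrays (x axis, 1 is the brightest), with the number of repeat-bearing probes over all probes above each bar. The share falls from 24 of 25 at the top to 335 of 19429 in the last bin.

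Signal followed the strand and the length of the run. The 151 probes with TGTGTGTGTG had median levels of 8.62, 8.24 and 8.26 on the 3 arrays (3 day replicates 1 and 2, then 10 days), and the 73 with the complementary CACACACACA had 4.01, 3.56 and 3.74. The 37862 probes that were not repeat-bearing had -3.12, -2.82 and -2.59. The median of the mean level over the arrays was 6.78 for the 102 probes with TG runs of 10 to 19 bases, 9.24 for the 30 with 20 to 29 bases and 9.66 for the 19 with 30 bases or more. For CA runs of the same lengths it was 2.23 (51 probes), 7.54 (17 probes) and 8.62 (5 probes). The TG motif or its complement was found in 1.61% of the 32851 promoter windows of 300 bases in RefSeq's tables, searched on both strands. All 25 of the brightest genes were highest in replicate 1 of the 3 day controls, with ranges over the 3 arrays between 0.22 and 0.61. Which transcripts gave the signal of the repeat-bearing probes was not tested, and the levels of the genes named for them are not read as expression of those genes.

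With repeat-bearing probes left out, an alternative added after the data were seen, Prl alone was kept among the 25 brightest genes. Members of the gene lists for the immediate early and heat shock response then came to the top. Dnajb1, a co-chaperone of Hsp70, stood at 9.13, 9.53 and 8.86. The transcription factor genes Jund, Egr1 and Fosb stood at 8.96, 8.84 and 8.70, at 8.61, 8.47 and 8.61, and at 8.44, 8.46 and 8.55. Among these 4 genes the range over the 3 arrays was largest for Dnajb1, at 0.67, and Egr1 and Fosb had SDs of 0.08 and 0.06 over the 3 arrays. Apod, which encodes the lipid carrier apolipoprotein D, stood at 8.66, 8.19 and 8.47. The remainder included the ubiquitin gene Ubb, the growth control factor Plagl1 (7.92, 8.45 and 7.34), the ribosomal protein genes Fau, Rpl41, Rps24, Rps9, Rps15 and Rps29, and Chgb, a granin of secretory granules (7.50, 7.66 and 7.40).

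Of 24056 named genes on the array, 12901 (53.6%) had a probe well above background on all 3 control arrays, and 6440 (26.8%) on none. A further 4715 were above background on 1 or 2. Of these 424 were detected in 3 day replicate 1 alone, 991 in 3 day replicate 2 alone and 810 at 10 days alone. The shares set the scale for the gene lists below and for the cell type markers, of which 108 of 187 in 23 lists were detected on all 3 arrays and 39 on none. The brightest probe of 9 markers was repeat-bearing, and without such probes 102 of the 187 were detected on all 3.

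**Figure D2:**
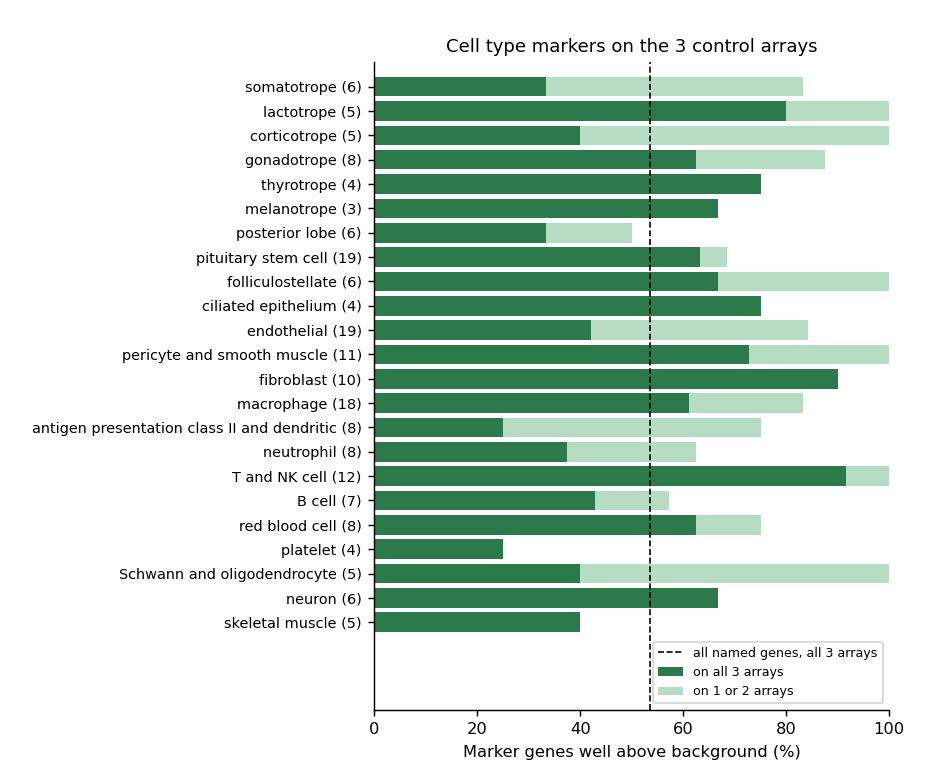
Share of the marker genes of each cell type (number on the array in brackets) with a probe well above background on all 3 control arrays (dark) and on 1 or 2 of them (light), with the share of all named genes detected on all 3 (53.6%) as a dashed line. Fibroblast (9 of 10) and T and NK cell (11 of 12) markers were the most completely detected, and platelet (1 of 4) and class II and dendritic (2 of 8) markers the least.

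Hormone cell transcripts were present in the sorted fraction and uneven between arrays. Gh stood at 5.69 and 3.66 after 3 days and 7.88 after 10 days, and Pomc, the corticotropin precursor, at 5.64, 1.13 and 5.80. Replicate 2 of the 3 day controls was the lowest of the 3 for both. Cga, the subunit shared by the glycoprotein hormones, stood at 1.33, -3.46 and 3.89, Lhb at 0.85, -1.19 and 2.73 and Tshb at 0.57, -0.43 and 2.31, again lowest in replicate 2 and highest at 10 days. Prl was the exception, with its lowest level at 10 days. Fshb was not well above background on any of the 3. Ghrhr, through which the hypothalamus stimulates somatotropes, was above background at 10 days alone (0.02), and Ghsr, the ghrelin receptor, on none.

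Of the full marker lists, 2 of 6 somatotrope, 4 of 5 lactotrope, 2 of 5 corticotrope, 5 of 8 gonadotrope and 3 of 4 thyrotrope genes were detected on all 3 arrays, hormone genes included. Without repeat-bearing probes the corticotrope count was 1 of 5, and the others were unchanged. Of the lactotrope genes, Drd2, the dopamine D2 receptor, stood at 1.88, 2.75 and 2.36. Dlk1, a non-canonical Notch ligand listed for somatotropes, stood at 6.87, 7.47 and 6.77. The corticotrope factor Tbx19 (-1.29, -3.70 and -4.15) and the vasopressin receptor Avpr1b (-0.53, -3.86 and -4.44) were above background on both 3 day arrays and not at 10 days, while Pomc was highest at 10 days. Nr5a1, the steroidogenic factor of gonadotropes, stood at 0.39, 0.06 and 0.16. Of the 3 melanotrope markers, Pax7, the selector of that lineage, was above background on none, Pcsk2, a prohormone convertase gene, stood at -0.87, 0.24 and -0.72, and the level of Oacyl came from a repeat-bearing probe. Of 6 posterior lobe markers 2 were detected on all 3 arrays, the hormone genes Avp (-2.16, -1.50 and -1.55) and Oxt (-2.12, -3.53 and -2.99). The factors Rax, Nkx2-1 and Lhx2 were above background on none and Vax1 in 3 day replicate 2 alone.

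**Figure D3:**
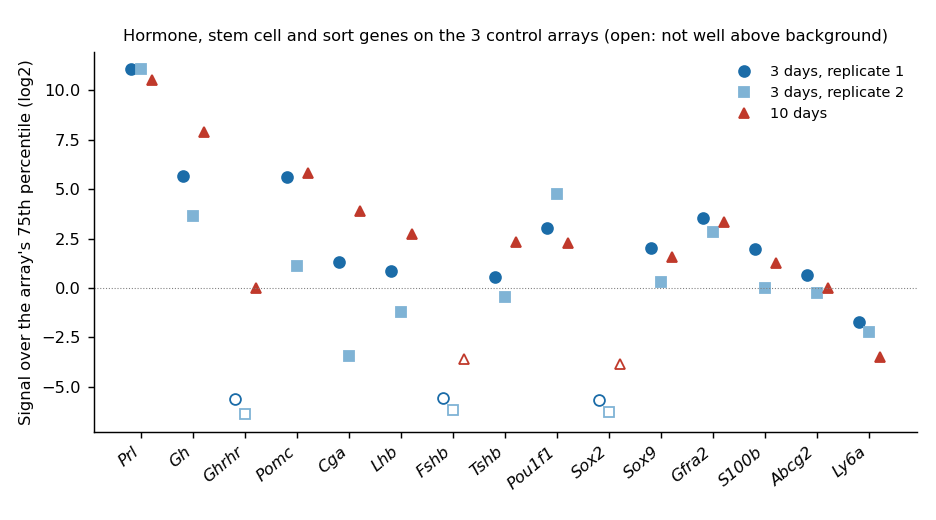
Level (y axis, log2 signal over the array's 75th percentile) of hormone, stem cell and sort genes on the 3 control arrays, 1 symbol per array, open where the probe was not well above background. Prl lies at 10.50 or higher on every array, Sox2 and Fshb are open on all 3, and Pomc and Cga are lowest in replicate 2 of the 3 day controls.

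Among 19 pituitary stem cell markers, 12 were detected on all 3 arrays. Sox2 itself, the factor that marks these cells, was not well above background on any (-5.67, -6.28 and -3.84), and neither were the receptor genes Gfra3 and Ret and the adhesion gene Cdh1. Sox9 stood at 2.01, 0.33 and 1.57, Gfra2 at 3.56, 2.82 and 3.32 and the epithelial adhesion gene Epcam at 3.05, 3.71 and 3.07. The keratins Krt8 and Krt18, Cd9 and the adhesion receptor gene Cxadr were also above background throughout. Nes, the intermediate filament nestin, ranged from -3.12 to 1.18 and Mia from -3.69 to 2.19, replicate 2 of the 3 day controls being the highest array for Nes and the lowest for Mia. A probe not well above background gives only an upper bound for its transcript.

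Dye transporters and the sort gene were detected at modest levels. Abcg2, the transporter held to underlie the side population phenotype, stood at 0.68, -0.25 and -0.01, and Abcb1a at -3.23, -0.71 and -0.78. Of 8 genes in this list 7 were detected on all 3 arrays, Abcc3 being below background in replicate 1. Ly6a, on which the sort was gated, was above background on all 3 (-1.73, -2.24 and -3.47). Of the folliculostellate genes, S100b stood at 2.00, 0.00 and 1.28, Fxyd1 at 4.25, 3.27 and 3.68 and Anxa1, the anti-inflammatory annexin, at 0.43, -0.04 and 0.59. Gfap was above background in 1 replicate of 3 days alone.

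Stromal genes were detected alongside these. Of the fibroblast list, 9 of 10 were above background on all 3 arrays, Dpt on none. Dcn, the proteoglycan decorin, stood at 6.53, 5.81 and 6.26, Mgp at 6.33, 6.08 and 6.09, Col1a2 at 5.86, 5.47 and 5.38 and Pdgfra at 1.64, 1.20 and 2.24. Among pericyte genes Pdgfrb stood at 4.61, 4.34 and 4.71 and Rgs5 at 1.59, -0.16 and 1.82, with 8 of 11 detected throughout. The level of Mcam (8.89, 8.60 and 8.55) came from a repeat-bearing probe, as did that of Kdr (1.64, 1.78 and 1.58) among the endothelial genes. Of 19 endothelial genes 8 were detected on all 3 arrays, Pecam1 near the lower limit (-2.77, -2.81 and -2.61) and Eng at 1.08, 1.48 and 0.85. Cdh5, Egfl7 and Icam2 were above background in 3 day replicate 1 and at 10 days and not in replicate 2, and Tek, Tie1 and Sox17 were above background on none.

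Blood cell genes were found as well. Of 12 T and NK cell genes 11 were detected throughout, with Cd3e, the invariant chain of the T cell receptor complex, at 2.31, 2.47 and 2.16 and Nkg7 at 2.94, 3.76 and 3.58. Macrophage genes were split. Csf1r (4.92, 4.76 and 4.61), Tyrobp (2.81, 2.59 and 2.79) and Fcer1g (2.00, 1.65 and 2.00) were above background, whereas Aif1, C1qa and Mrc1 were above background on none. The level of Itgam (7.59, 7.33 and 7.39) came from a repeat-bearing probe. Of 7 B cell genes 3 were detected on all 3 arrays, and 2 without repeat-bearing probes. Pax5 stood at -2.32, -1.76 and -2.02, while Cd79b, Ms4a1 and Blk were above background on none. The red cell gene Ahsp was above background on none, while the haemoglobin genes Hba-a1 (0.17, -0.91 and 1.74) and Hbb-bs (-3.51, -3.79 and -1.84) were detected on all 3.

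The pituitary lineage factors Pou1f1 (3.06, 4.76 and 2.28), Pitx1 (1.86, 1.78 and 1.41) and Lhx3 (0.83, 2.42 and 1.29) were present on all 3 arrays, Pou1f1 and Lhx3 being highest in replicate 2, the array with the lowest Gh, Pomc and Cga. Hesx1, Isl1 and Pax6 were above background on none. The level of Foxl2 came from a repeat-bearing probe. Of 20 secretory granule genes, 18 were detected throughout, and 16 without repeat-bearing probes. Among them were Cpe, the prohormone carboxypeptidase (6.28, 6.56 and 6.16), and Scg2 (4.32, 4.29 and 4.21). Of 9 genes that bear on toxin action 7 were detected. Hbegf, the mouse homologue of the toxin receptor, stood at 2.99, 1.61 and 1.58 and Eef2, the elongation factor that the toxin inactivates, at 4.87, 4.98 and 4.50. Dph2, which acts in the synthesis of the modified histidine of that factor, was above background in 3 day replicate 2 alone.

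Stress genes were detected without exception in the immediate early list (29 of 29) and in 11 of 12 heat shock genes. Fos stood at 6.03, 6.22 and 6.54, Zfp36 at 6.69, 6.52 and 6.64, Dusp1 at 6.04, 6.46 and 6.27 and Nr4a1 at 6.46, 6.86 and 6.62. The median range of the 29 genes over the 3 arrays was 0.51, against 1.11 for all genes tested, which include genes at background. Other lists had 0.35 (ribosomal protein), 0.55 (heat shock), 0.57 (oxidative phosphorylation), 0.75 (secretory granule) and 1.48 (interferon response). A small range was thus not particular to immediate early genes. The chemokine gene Cxcl1 stood at 6.88, 6.48 and 7.01 and Il6 at 1.65, 1.60 and 2.79, and of the inflammatory list 24 of 33 were detected throughout. Of 26 genes of S and M phase 13 were detected. Pcna (2.84, 2.36 and 2.57) and Mcm4 (3.50, 1.88 and 3.13), which act in DNA replication, were among them. Genes of mitosis were divided, with Mki67 (-2.10, -3.26 and -1.34), Cdk1, Aurka, Birc5 and Plk1 above background on all 3 arrays and Top2a, Ccnb1, Aurkb, Bub1, Ttk and Kif11 on none. All 75 cytosolic ribosomal protein genes and 84 of 91 genes of oxidative phosphorylation (83 without repeat-bearing probes) were detected on all 3 arrays.

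The 2 controls of 3 days differed from each other by more than either differed from the 10 day control. Over the 20924 genes or unnamed transcripts tested, kept where 2 or more of the 6 arrays had the probe well above background, the log2 difference between the 3 day replicates had an SD of 1.58 and their levels correlated at 0.866. The 10 day array differed from replicate 1 with an SD of 1.43 (r = 0.890) and from replicate 2 with 1.28 (r = 0.899). These correlations are across genes, which are not independent replicates. More than a 2-fold difference was seen in 38.7% of genes between the replicates and in 36.4% and 29.7% between the 10 day array and each of them. Among the 15306 genes above background on all 3 control arrays the SDs were 1.15, 1.03 and 0.96, and among the others 2.29, 1.99 and 1.89.

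**Figure D4:**
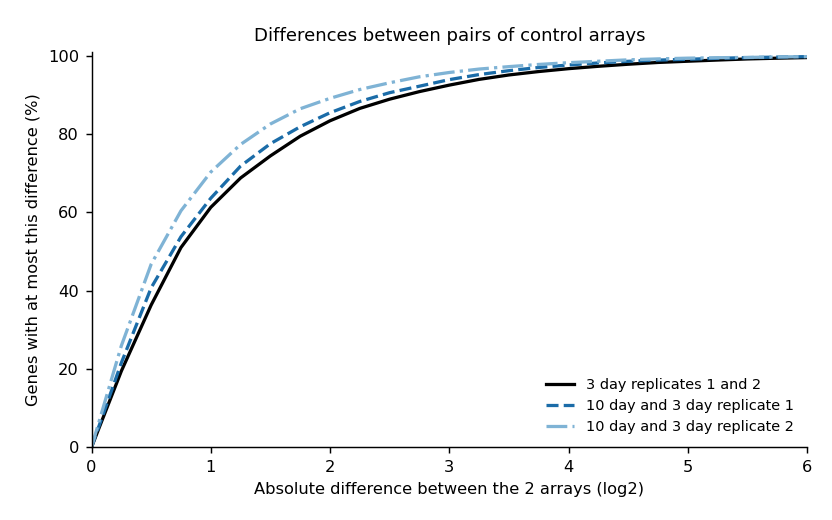
Share of the 20924 genes tested (y axis, percent) whose absolute difference between 2 control arrays is at most the value on the x axis (log2), for the 3 pairs of arrays. The line for the 2 replicates of 3 days lies lowest, with 38.7% of genes differing by more than 1.

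The genes that differed most between the 3 day replicates were chiefly detected in 1 of them and not in the other. Harbi1 stood at 2.68 in replicate 1 and -6.37 in replicate 2, Kcns3, a potassium channel subunit gene, at 2.02 and -6.31 and Sox6 at 1.93 and -6.40. In the other direction Gdf9 stood at -5.92 and 2.42, Ttll5 at -5.59 and 2.68 and Bsn, which encodes the presynaptic protein bassoon, at -2.51 and 5.25. The 10 genes of largest difference in each direction differed by 7.05 to 9.05 and by 7.17 to 8.34. The dimmer replicate was not above background for 10 of 10 and 9 of 10 of them. At 10 days 9 of 10 and 8 of 10 were above background, and the 10 day level lay between the replicates for 10 and for 7. These genes were chosen for their difference, which is a description of these 2 arrays.

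The comparison of 10 with 3 days asks whether the side population of mice without ablation drifts with the length of toxin exposure. No gene passed an adjusted p of 0.05 in either direction (0 of 20924 by limma, 0.0%, lowest adjusted p 0.99997). At an unadjusted p under 0.05 there were 594 genes (2.84%) higher and 250 (1.19%) lower after 10 days. The 10 day level lay above both 3 day levels for 32.8% of genes and below both for 26.9%. The comparison sets 1 array of 10 days against 2 of 3 days, in a fit over all 6 arrays. Its 2 residual degrees of freedom come from the 2 controls and the 2 GHCre arrays of 3 days, so the errors hold the spread of GHCre mice too. On simulated data of this size the fit called 0% of 200 genes changed by a log2 value of 6, so a count of 0 does not show that the arrays are alike. The 3 control arrays lie on 3 slides, so neither day nor replicate can be told apart from slide. The median over all genes was 0.10 in the reported scaling, 0.00 after quantile normalization and -0.04 after normexp background correction, and the differences below are to be read relative to it. After quantile normalization 546 genes were higher and 423 lower at an unadjusted p under 0.05.

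Genes with the lowest unadjusted p among those higher after 10 days were chiefly genes not detected after 3 days. Rgs17, a regulator of G protein signalling, stood at -5.75 and -6.36 after 3 days and 0.41 after 10 days, a difference of 6.46 ± 0.66 (SE) and, against the lowest signal above background, at least 19.8-fold. Such a bound sets each dim array to no less than its own lowest level well above background and holds for the reported scaling. For genes at background on both 3 day controls, the SE and p rest in part on the scatter of signals at background. Gal3st4, a sulfotransferase gene, stood at -5.84, -6.40 and -0.10 (at least 13.9-fold), P2rx7, the ATP-gated channel, at -5.69, -6.32 and -0.75 (at least 8.86-fold) and Adra2a, an adrenergic receptor gene, at -5.75, -6.39 and -0.75 (at least 8.89-fold). Itga9, the integrin alpha 9 gene, stood at -5.92, -6.43 and -1.72 and the kinase gene Pask at -5.87, -6.41 and -1.26. The 12 genes named in this direction also include Cecr2, Prss32, 5430411C19Rik, Gm8630, 1810059H22Rik and 2810408I11Rik, and 11 of the 12 were not above background on either 3 day array, Prss32 being above it in replicate 2. None had an adjusted p below 0.99997 with limma, and their unadjusted p ran up to 0.00137.

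The GHCre arrays hold other levels of some of these genes. P2rx7 stood at 0.14 and 0.12 in the GHCre arrays of 3 days and 1.59 in that of 10 days. Adra2a stood at -0.20, -0.63 and -2.81. For these genes the 3 day controls were the lowest of the 6 arrays. Of the 12 genes named as higher, 6 had both GHCre arrays of 3 days above both 3 day controls. In GHCre mice 10 of the 12 were also higher after 10 than after 3 days, with Gal3st4 at -5.93, -6.30 and -1.41. Comparisons of GHCre with control after 3 days and of 10 with 3 days in controls share the 2 controls of 3 days. Genes at background in both of these entered the fit only through a GHCre array above background.

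Among genes lower after 10 days, Ly6k, a member of the Ly6 family, stood at -0.20 and 0.04 after 3 days and -6.22 after 10 days, at least 14.4-fold lower, and Nemp1, a nuclear envelope gene, at -0.06, 0.19 and -5.12, at least 15.9-fold lower. Fastkd5, which acts in mitochondrial RNA processing, stood at 0.14, -0.21 and -3.46 and Pdss1, of coenzyme Q synthesis, at -0.26, -0.23 and -3.13, above background throughout. Their differences were -3.42 ± 0.51 and -2.88 ± 0.48. Gpsm2, which orients the mitotic spindle, stood at -1.67, -1.20 and -4.73, and Gtf3c4, a subunit of a transcription factor of RNA polymerase III, at 0.01, -1.64 and -5.90. The level of Wrap53 (0.91, 0.84 and -3.66) came from a repeat-bearing probe. The 12 named also hold B130006D01Rik, Rhebl1, Lyrm9, Adat2 and Fbxo47, and 9 of the 12 were not above background at 10 days. For Ly6k the GHCre levels were -5.73, -6.34 and -6.51, so it entered the fit only through the 2 controls of 3 days. The genes named as lower had to be above background on both of these controls, which alone admits a gene to the fit. All 12 had both GHCre arrays of 3 days below both 3 day controls. Between the GHCre arrays of 10 and 3 days, 6 of the 12 were lower.

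Of the hormone genes Gh, Cga, Lhb, Tshb and Pomc were higher and Prl lower after 10 days, with large errors. Gh differed by 3.20 ± 1.73, Cga by 4.96 ± 2.33, Lhb by 2.90 ± 1.64, Tshb by 2.24 ± 0.72, Pomc by 2.41 ± 2.44 and Prl by -0.56 ± 0.49, with an adjusted p of 0.99997 with limma for each. Ghrhr was at least 15.1-fold higher after 10 days. In GHCre mice the same differences were -1.60 for Gh, -3.41 for Cga, -1.55 for Lhb, -0.51 for Tshb and -0.55 for Pomc. The difference between the genotypes was tested on its own, and 0 of 20924 genes passed (lowest adjusted p 0.999998 with limma, 824 at an unadjusted p under 0.05). For Gh it was -4.80 ± 2.45 and for Cga -8.36 ± 3.29.

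No member of any list passed the test. Their counts are set against the 55.7% of all genes whose difference was above 0. Of 75 ribosomal protein genes, 72 were lower after 10 days, with a median of -0.25, and 66 lay below both 3 day levels, against 26.9% of all genes. Rps9 stood at 7.89, 7.56 and 7.10 and Rpl11 at 3.15, 3.11 and 2.82. The medians against the single replicates were -0.31 and -0.19, and that between the replicates was -0.11. Quantile normalization brought the count to 62 of 75 and the median to -0.13. Of 20 secretory granule genes 18 were lower (median -0.26, with -0.11 and -0.39 against the single replicates), with Vgf at 0.74, 0.90 and -0.54 and Cadps at -1.67, -1.73 and -3.68. Of 12 heat shock genes 10 were lower (median -0.24) and 7 lay below both 3 day levels, with medians of -0.06 against replicate 1 and -0.47 against replicate 2.

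Red blood cell genes lay on the other side. All 6 tested were higher after 10 days (median 1.96), and 5 lay above both 3 day levels, against 32.8% of all genes. Alas2, the erythroid enzyme of haem synthesis, stood at -5.38, -3.93 and 0.18, Hba-a1 at 0.17, -0.91 and 1.74 and Hbb-bs at -3.51, -3.79 and -1.84. The difference was 4.84 ± 0.99 for Alas2 and 2.11 ± 1.35 for Hba-a1. Replicates of 1 condition also lay far apart for Hba-a1, at 1.85 and -0.87 in the GHCre arrays of 3 days. The 6 genes include both Hba-a1 and Hba-a2 and both Hbb-bs and Hbb-bt, which are related genes rather than separate readings. The summed level of the 8 genes, as multiples of the 75th percentile, was 2.12, 1.44 and 7.43. The erythroid gene Ahsp was not above background on any of the 3 arrays. After quantile normalization 5 of 6 were higher, with a median of 1.81, and after normexp background correction the median was 1.17. The part of blood cells in other differences of the 10 day array was not tested.

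Interferon and inflammatory genes were more often above than below. Of 32 interferon response genes 23 were higher after 10 days (median 0.63, 0.39 after normexp) and 19 lay above both 3 day levels, with Oasl1 at -2.89, -3.59 and -1.12 and Oas2, an oligoadenylate synthetase gene, at -5.71, -4.75 and -2.40 (at least 2.83-fold). Of 30 inflammatory genes 20 were higher (median 0.59, 0.38 after normexp) and 16 lay above both, with Nfkbia, an inhibitor of NF-kappaB, at 2.26, 2.34 and 3.26 and Saa3 at -5.62, -5.24 and -2.21 (at least 3.22-fold). Markers of several blood cells lay in the same direction. The 6 class II and dendritic genes tested were all higher, with a median of 1.12 that came to 0.67 after quantile normalization and 0.20 after normexp background correction. The 5 neutrophil genes were higher too (median 0.51, 0.30 after normexp), and so were 11 of 15 macrophage genes (0.34, 0.21 after normexp). Of 12 T and NK cell genes 10 were higher (median 0.24), with medians of 0.07 against 3 day replicate 1 and 1.95 against replicate 2. Their summed levels were 0.98, 2.50 and 4.27 for class II and dendritic genes and 7.57, 8.54 and 10.9 for neutrophil genes. For T and NK cell genes they were 23.7, 24.2 and 27.1, and for macrophage genes 243, 205 and 213. The macrophage sum holds the repeat-bearing probe of Itgam, the brightest of that list (7.59, 7.33 and 7.39). That sum is therefore not read as expression of macrophage genes. Xcr1, Cd209a, Ly6g, Ltf, Cxcr2, Aif1, C1qa and Mrc1 were not above background on any of the 3 arrays. The part of these cells in the interferon and inflammatory differences was not tested. Between the GHCre arrays of 10 and 3 days the medians were -1.25 for interferon genes, with 4 of 32 higher, and -0.56 for inflammatory genes, with 4 higher. No member's difference between the genotypes passed the test.

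Within the immune lists single genes diverged. Cd14 stood at -4.03, -2.92 and -0.92, C1qc at -5.78, -6.36 and -0.74, at least 8.90-fold higher, and Cx3cr1, the fractalkine receptor, at 0.26, -0.25 and -2.64, while C1qa was above background on none and C1qb was at -1.12, -1.53 and -0.66. Il7r (-2.75, -3.09 and 0.62) and Ccr7 (-5.60, -4.21 and -1.06), of naive T cells, were higher at 10 days. Cd8a was lower by its brightest probe (-1.74, -2.34 and -5.05), while another probe of Cd8a was well above background at 10 days. Of genes that respond to oestrogen in the pituitary 5 of 8 were lower (median -0.76), with the progesterone receptor gene Pgr at 0.01, -0.90 and -2.46, Greb1 at 0.66, 0.81 and -0.69 and Gal, the neuropeptide galanin, at 2.13, 0.72 and -0.56. Esr1, the oestrogen receptor gene, stood at 1.52, 2.66 and 1.52.

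Of 13 stem cell genes tested 10 were higher (median 0.30), but the median against replicate 1 was 0.02 and that against replicate 2 was 0.49. Aldh1a2, the retinoic acid synthesis enzyme, stood at -3.34, -1.82 and -0.34, and Cpxm2 was at least 2.82-fold higher. Fibroblast genes had a median of 0.01, with 5 of 9 higher, and endothelial genes one of 0.65, with 10 of 14 higher, which came to 0.03 after normexp background correction and was 0.15 against replicate 1 and 0.48 against replicate 2. Of 11 pericyte genes 10 were higher (median 0.40, 0.24 after normexp, and 0.40 and 0.88 against the single replicates), with Des, the muscle filament desmin, at -2.17, -1.39 and 1.20 and Abcc9, a potassium channel subunit gene, at -1.37, -1.05 and 0.54. Slc1a3, a glutamate transporter gene of folliculostellate cells, stood at -5.02, -4.80 and -2.01, at least 3.71-fold higher.

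The signalling lists had medians of 0.40 for Notch, 0.30 for Wnt and 0.47 for TGF-beta and BMP genes, with 11 of 14, 16 of 22 and 17 of 24 genes higher (0.26, 0.16 and 0.25 after normexp), and -0.07 for Hedgehog genes, whose medians against the single replicates were 0.20 and 0.06 and whose median after quantile normalization was 0.03. Of genes of apoptosis, Bbc3 (1.28, 1.14 and 3.34) and Bak1 (-0.56, -0.10 and 1.29), which encode activators of the mitochondrial pathway, had an unadjusted p under 0.05. Immediate early genes had a median of 0.07 with 19 of 29 higher. Oxidative phosphorylation genes had a median of -0.19 with 58 of 89 lower, although Ndufab1 stood at -5.84, -6.40 and -2.23, at least 3.18-fold higher. Of 45 lists, 28 had a median above 0.

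**Figure D5:**
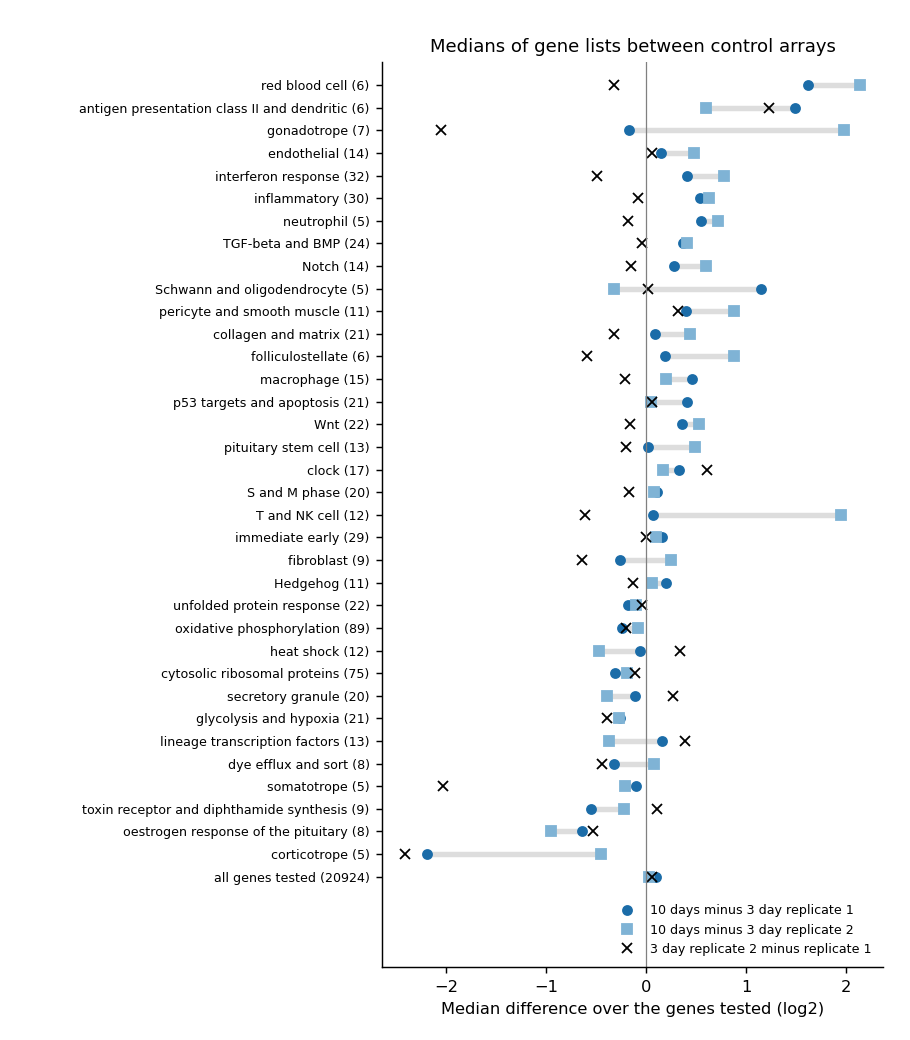
Median difference over the genes tested (x axis, log2) for each list of 5 or more genes (number in brackets) and for all genes, of the 10 day array against 3 day replicate 1 (circles) and replicate 2 (squares), with the difference between the 3 day replicates as crosses. Circles and squares share the 1 array of 10 days and so are not independent. They lie on the same side of 0 in 30 of 35 lists, and those of the gonadotrope list lie far apart, at -0.17 and 1.97.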

How the data were processed

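Spot intensities of 1-colour Agilent mouse arrays were deposited by the authors as scanner output of Feature Extraction 10.7.3.1, per the file headers. Per the file headers, spatial and multiplicative detrending were on for the processed signal. A table of log2 values that the authors deposited matched the quantile-normalized signal (r above 0.9999 on each array) and served as an alternative. From the intensities, log2 of the processed signal minus each array's 75th percentile was computed for non-control probes. Each gene was represented by its brightest probe, named by accession, symbol or synonym through RefSeq's tables (GRCm38.p6) or as in the files. Probe positions are mm9, per the file headers, and exon or UTR annotation of that build was not used here.

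Groups were fitted with limma 3.58.1 (R 4.3.3) over all 6 arrays, 4 group means and Benjamini-Hochberg adjustment. The fit was tested on simulated data of the same size. Detection is the scanner software's call, on any probe of a gene. Named genes are the 25 brightest, the 12 of lowest unadjusted p in each direction whose 10 day value lay outside the 3 day range, the 10 of largest replicate difference in each direction, list members and the hormone and sort genes. The members and lists were chosen with earlier results of these data known. Alternatives covered the scaling, background correction, filter, probe choice, replicate block and each replicate left out. Leaving out repeat-bearing probes was added after seeing the data. Some members of the lists are not reported here.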

Additional observations from a re-analysis of the deposited data

How the results depend on the processing

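No gene passed an adjusted p of 0.05 with limma under any setting run, either for 10 against 3 days or for the difference between genotypes. The counts at an unadjusted p under 0.05 moved from 594 higher and 250 lower to 1277 and 486 without replicate 2 of the 3 day controls, where the lowest adjusted p over the settings, 0.58, was reached and the lone 3 day array is assumed to vary like the others. Of the 24 genes named for 10 against 3 days, 3 were tested when a probe had to be above background on all 6 arrays. That setting drops every gene with an array below background. None of the 362 values of these genes under alternatives turned its sign. The genes were chosen with the 10 day level outside the 3 day range, so leaving out a replicate could not turn a sign. Of the 25 brightest genes 11 were kept with the mean of all probes of a gene and 1 with repeat-bearing probes left out. Among 45 lists, 52 of 720 alternative medians turned their sign, and 24 to 32 lists had a median above 0. The count of genes detected on all 3 arrays was 14767 and 13287 with 1 or the other 3 day control left out. With the replicate number as a replicate block, 0 genes passed, 899 were higher and 326 lower at an unadjusted p under 0.05, and 32 lists had a median above 0. After 3 days, control and GHCre arrays of the same replicate number lay on the same slide, so the number goes with the slide. The difference of replicate 1 from 2 in controls and in GHCre arrays correlated at 0.0864 over genes. This correlation cannot show whether the samples are paired. A slide effect as a random block could not be estimated with so few arrays. With 1 array of 10 days, the fit has no measure of the spread at that time, and probes not above background give bounds only.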
